A study of Mus musculus with 20 samples.

Results

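The regions described here are stretches of the mouse genome that carried the chromatin marks of an active enhancer in liver while carrying little of either mark in embryonic stem (ES) cells and little H3K4me1 in mouse embryonic fibroblasts (MEFs). They were found by counting sequenced reads in 1 kb bins of chromosomes 1 to 19. A bin was kept when liver H3K4me1 and liver H3K27ac each reached 2 RPM (reads per 1000000 distinct autosomal reads) and at least 2 times the sum of liver histone H3 and 0.1 RPM. Mean ES H3K4me1 had to be below 0.8 RPM, mean ES H3K27ac below 0.7 RPM and MEF H3K4me1 below 0.8 RPM. Bins had to be distal, which here means that H3K4me3 was below 1.5 RPM in liver and in ES cells in the bin and in both of its neighbours. This left 9908 of 2275060 distal bins, and joining bins within 1 kb gave 6312 regions.

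Enhancers are stretches of DNA, often far from a gene's start, that bind transcription factors and raise the gene's transcription in particular cell types. Histone H3 monomethylated at lysine 4 (H3K4me1) marks enhancers whether or not they are in use, while acetylation at lysine 27 (H3K27ac), laid down by p300 and its relative CBP, is found at those in use. Trimethylation at lysine 4 (H3K4me3) marks active promoters. An enhancer that carries H3K4me1 without H3K27ac is often called poised or primed.

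The series held 20 chromatin immunoprecipitation sequencing (ChIP-seq) or input libraries. Liver was whole perfused mouse liver that was dissociated, filtered and spun at low speed, with 1 library each of H3K4me1, H3K27ac, H3K4me3, total H3 and whole cell extract (WCE, DNA without immunoprecipitation). Neural progenitor cells (NPC) derived from 129JAE-C57/B6 cells were grown with FGF and EGF after selection from ES-derived embryoid bodies, with 1 library each of H3K27ac and of the transcription factor Rfx1. MEF-derived induced pluripotent stem (iPS) cells had 1 H3K4me1 library, and MEFs had 1 H3K4me1 and 1 H3 library. ES cells had 3 H3K4me1 libraries (129JAE-C57/B6 cells, the same background with a doxycycline-inducible 4F2A reprogramming transgene, and an inbred C57/B6 line), 2 of H3K27ac, 2 of p300 and 1 each of H3K4me3, H3 and WCE, all from 129JAE-C57/B6 cells (written 129JAE-C56/B6 for WCE). ES and iPS cells had been kept off their MEF feeder layer for only 1 or 2 passages before fixation, and whole liver holds several cell types, so that a mark in a few cells and a weak mark in all of them cannot be told apart. The labels do not say that the ES libraries came from separate cultures, and every liver, NPC, iPS and MEF value rests on 1 library.

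Distinct autosomal reads ran from 694055 (NPC Rfx1) to 14280972 (MEF H3K4me1), with 7319342 for liver H3K4me1 and 5049578 for liver H3K27ac. At these depths 2 RPM stood for at least 15 reads of liver H3K4me1 and at least 11 reads of liver H3K27ac. The ES H3K4me3 library had 70.0% repeated reads and 2319684 distinct ones, so 1.5 RPM there was 4 reads. Intervals given below are 95% Wilson intervals and cover counting error of bins or regions only. Neighbouring bins share fragments, so the intervals are too narrow for independent sites.

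Liver was the source of every value in the first step of the choice, and the steps show how the set narrowed. Of the distal bins, 63771 passed for liver H3K4me1 and 27228 passed for both liver marks. The limit on ES H3K4me1 left 15352 of these, the limit on ES H3K27ac left 13691 and the limit on MEF H3K4me1 left 9908, which was 36.4% of the distal bins active in liver. A set of 5594 bins met the same liver limits but had ES H3K4me1 of 2 RPM or more (premarked in ES). A further 1859 bins met the liver and ES limits but had MEF H3K4me1 of 2 RPM or more (MEF-shared), and 5103 bins met all limits on ES and MEF and had liver H3K4me1 but under 0.7 RPM of liver H3K27ac (liver H3K4me1-only). These 3 sets, and the 1812668 distal bins with at least 5 reads summed over the 5 H3 and WCE libraries (tested bins), are used for comparison. Of the 9908 member bins, 9865 passed that minimum and 43 did not.

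The members were chosen by liver H3K4me1, H3K27ac, H3 and H3K4me3, by ES H3K4me1, H3K27ac and H3K4me3 and by MEF H3K4me1, so values of these libraries are a description. Liver H3K4me1 had a median of 4.37 RPM (32 reads) and reached 22.7 RPM, and liver H3K27ac had a median of 3.96 RPM (20 reads) and reached 40.6 RPM. The means were 4.95 RPM of H3K4me1 and 5.21 RPM of H3K27ac in members, against 0.332 and 0.230 RPM in all tested bins. Liver H3 averaged 0.505 RPM in members and 0.486 RPM in all tested bins. In RPM the 2 liver marks were close: the median of log2 (H3K27ac over H3K4me1) was -0.05 in members, -0.34 in premarked bins and -0.23 in MEF-shared bins. This ratio compares RPM of 2 single libraries, each with a lower limit of 2 RPM, and does not measure how much of each mark was present. H3K27ac exceeded H3K4me1 in 47.3% of members, against 31.6% of premarked bins. Over the 9908 bins the marks had a Spearman correlation of 0.436, which is a description over bins that share 2 libraries and a lower limit on both. At 904 members (9.12%) H3K27ac reached 10 RPM or more.

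**Figure D1:**
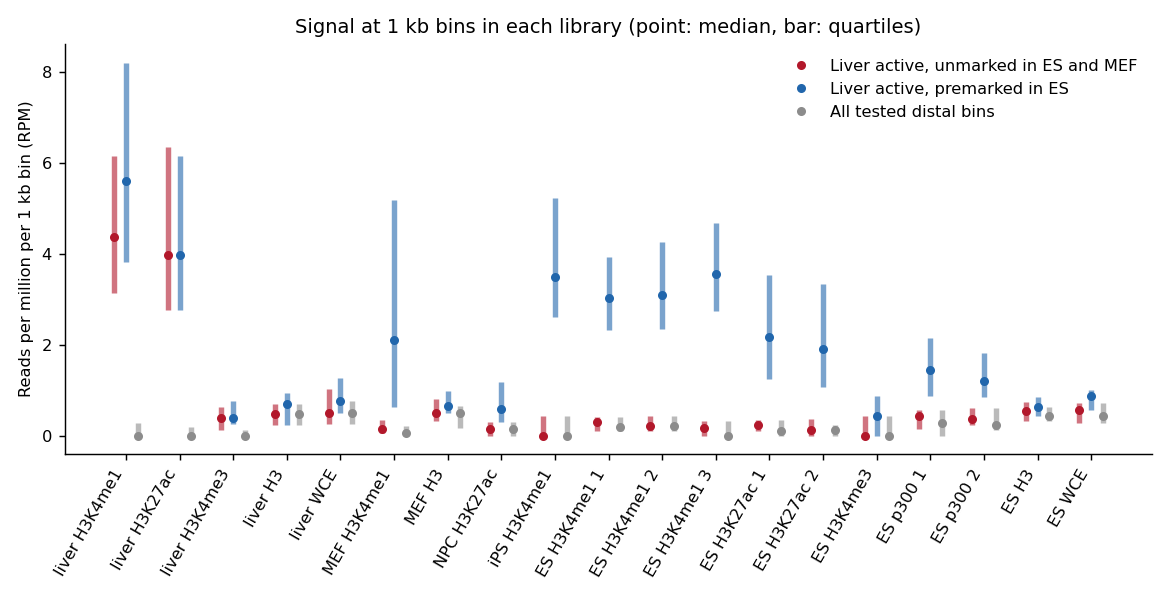
Signal per 1 kb bin in RPM (vertical axis) in 19 of the 20 libraries (horizontal axis, NPC Rfx1 left out), for members (red), bins premarked in ES (blue) and all tested distal bins (grey); points are medians and bars quartiles over bins. Member medians are highest in liver H3K4me1 and H3K27ac, at 4.37 and 3.96 RPM, and lie below 0.6 RPM in the other libraries shown, while premarked bins are also high in ES and iPS H3K4me1.

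The single ES libraries are the values whose means chose the members, so they are given as a description. Members averaged 0.314, 0.283 and 0.240 RPM in the 3 ES H3K4me1 libraries, and no member reached 2 RPM in any of them. H3K4me1 was below 0.8 RPM in all 3 at 8413 members (84.9%), and the other members reached it in at least 1 library. ES H3K27ac averaged 0.262 and 0.202 RPM in its 2 libraries, and 9235 members (93.2%) were below 0.7 RPM in both. These ES values were not the lowest of the genome. In tested bins that met the ES and MEF limits whatever their liver marks, a background set defined after values had been seen, the same ES H3K4me1 libraries averaged 0.186, 0.173 and 0.117 RPM. The background libraries moved in the same direction: ES H3 averaged 0.550 RPM in members and 0.454 RPM in those unmarked bins, ES WCE 0.565 and 0.425 RPM, and liver WCE 0.653 and 0.423 RPM. The part of these background levels in the low ES signal was not tested.

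The limits passed through a continuous range of values. Within 10% of the limit on liver H3K27ac, 715 bins lay inside and 726 bins that met all other limits lay outside. For ES H3K4me1 the counts were 305 inside and 242 outside, with median ES H3K4me1 of 0.758 and 0.840 RPM. Failing 1 limit alone kept out 5600 bins next to or within liver H3K4me3, 5235 bins short of H3K27ac, 3783 bins with MEF H3K4me1 and 1736 bins with ES H3K4me1. iPS H3K4me1, which the choice did not use, averaged 0.224 RPM in members and 1.31 RPM in the bins kept out by ES H3K4me1 alone.

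Most regions were narrow. A single bin made up 4155 of the 6312 regions (65.8%), and 220 (3.49%) spanned 5 kb or more. Wider regions were more strongly acetylated, with a median liver H3K27ac of 6.44 RPM per bin at 5 kb or more and 3.37 RPM at 1 kb, while median H3K4me1 was 4.75 and 4.10 RPM. Single bins were 68.7% of premarked regions, 78.1% of MEF-shared regions and 91.8% of liver H3K4me1-only regions.

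Many regions were pieces of broader acetylated blocks. When all bins with liver H3K27ac of 2 RPM or more were joined in the same way, whatever their other marks, the 6312 member regions fell in 5803 blocks with a median width of 3 kb and quartiles of 1 and 7 kb. The region was the whole block in 2575 cases (40.8%). The block also held H3K4me3 of 5 RPM or more for 17.3% of member regions, ES H3K4me1 of 2 RPM or more for 16.4%, and MEF H3K4me1 of 2 RPM or more for 23.8%. None of these 3 was present in the blocks of 67.8% of member regions. Mean liver H3K27ac was 5.21 RPM at the member bin, 3.96 RPM in the next bin and 2.48 RPM at 10 kb on one side. Mean liver H3K4me3 was 0.424 RPM at the bin, where the choice held it down, and 1.52 RPM at 10 kb. ES H3K4me1 averaged 0.279 RPM at the bin and 0.562 RPM at 10 kb, against 1.92 RPM at 10 kb from premarked bins, which were chosen for high ES H3K4me1. The 0.562 RPM was above the mean of all tested bins, 0.403, 0.392 and 0.391 RPM in the 3 libraries. Flanking bins were not limited to distal ones.

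**Figure D2:**
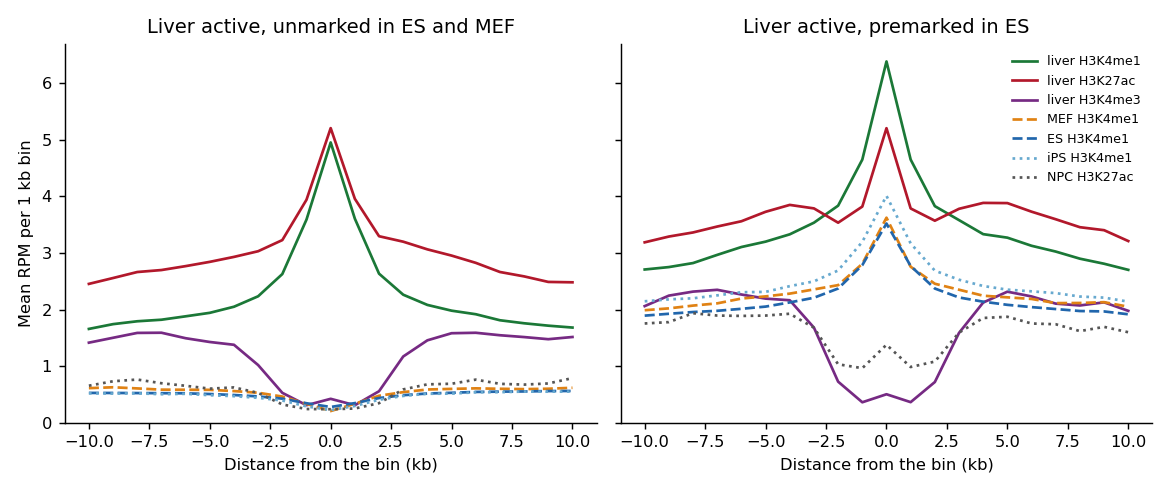
Mean RPM per 1 kb bin (vertical axis) against distance in kb from the bin (horizontal axis) around 9908 members (left) and 5594 bins premarked in ES (right), 1 line per mark and cell type. Around members both liver marks fall away from the bin, H3K27ac to 2.48 RPM at 10 kb, and ES, iPS and MEF H3K4me1 dip at the bin itself, where the choice held the ES and MEF values low.

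The strongest regions show the pattern at single sites. Positions are 1-based and are given as in the deposited reads, whose largest positions lie at or just inside the chromosome ends of the mm8 build of the mouse genome as recalled. This build is inferred, and no gene annotation of it was used, so no gene is named. The region with the highest liver H3K27ac was chr13:24373001-24374000, with 154 H3K27ac reads (30.5 RPM) and 38 H3K4me1 reads (5.19 RPM) in liver. It had 2 and 1 ES H3K27ac reads, 1, 6 and 0 ES H3K4me1 reads, 3 MEF H3K4me1 reads, 1 NPC H3K27ac read and 1 iPS H3K4me1 read. Its nearest liver H3K4me3 domain lay 12 kb away and was liver-specific in the sense defined below.

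The next 2 regions by H3K27ac were near each other on chromosome 9, at chr9:48490001-48491000 (27.5 RPM) and chr9:48481001-48484000 (27.4 RPM). Another region there, chr9:48498001-48512000, was among the 5 widest, with all 14 of its bins members and 10.9 RPM of liver H3K27ac. Its ES H3K4me1 was 0.273, 0.167 and 0.207 RPM in the 3 libraries. The next, chr2:27448001-27450000, had 25.5 RPM of liver H3K27ac, and the last of the 5, chr5:140370001-140371000, had 24.2 RPM. All 5 of the most acetylated regions had a liver-specific domain as their nearest one, between 12 and 86 kb away. The 2 on chromosome 9 are neighbours and not separate cases. Over all member regions the share with a liver-specific nearest domain was 32.2%.

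The widest region, chr15:3432001-3454000, spanned 22 kb with 17 member bins. It had 629 liver H3K27ac reads (5.66 RPM per bin) and 632 liver H3K4me1 reads (3.92 RPM per bin). ES H3K4me1 was 0.128, 0.126 and 0.0440 RPM per bin, MEF H3K4me1 was 0.280 RPM, NPC H3K27ac was 0.0667 RPM and iPS H3K4me1 was 1 read in all. It lay 75 kb from the nearest liver H3K4me3 domain, which was shared with ES cells. The others among the 5 widest were chr19:34771001-34786000, 15 kb wide with 6.84 RPM of liver H3K27ac, chr2:163251001-163265000, 14 kb wide and 2 kb from a liver-specific domain, and chr13:81800001-81814000, 14 kb wide with 10.9 RPM and 320 kb from any domain.

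**Figure D3:**
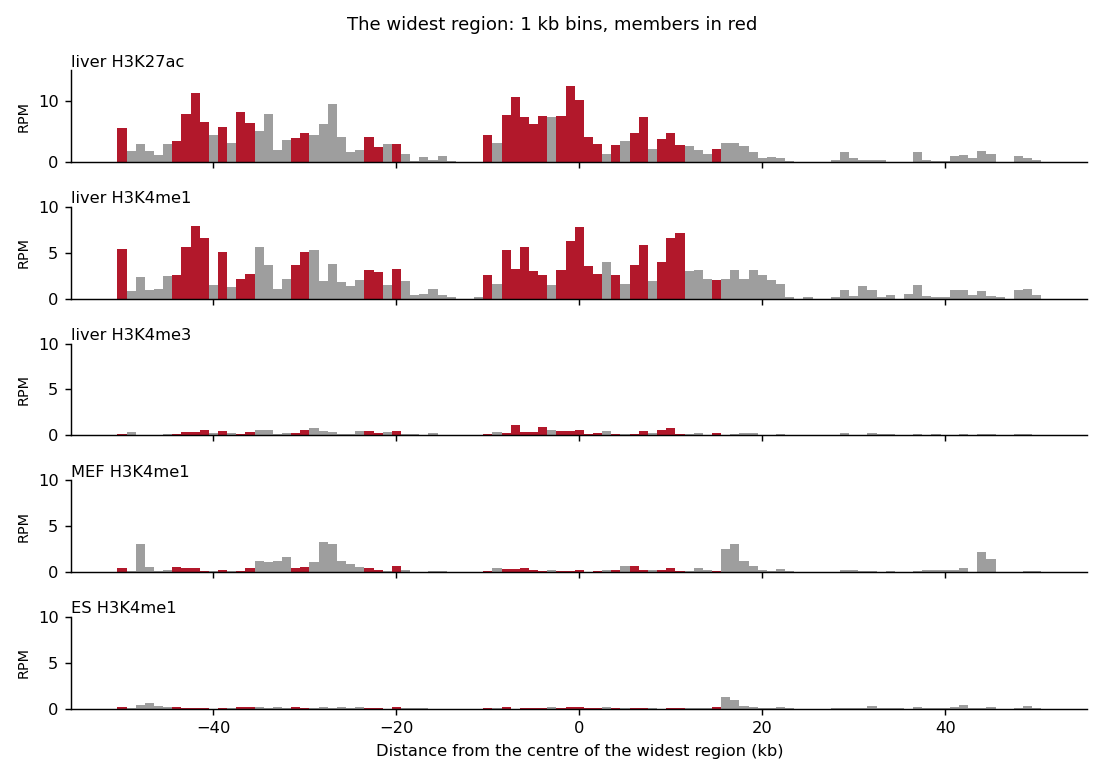
RPM per 1 kb bin (vertical axes) against distance in kb from the centre of the widest region (horizontal axis), for liver H3K27ac, H3K4me1 and H3K4me3, MEF H3K4me1 and ES H3K4me1, with member bins in red and other bins in grey. The 22 kb region at the centre is high in both liver marks and low in ES and MEF H3K4me1, and grey bins to its left and right include bins with MEF H3K4me1.

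Members were unevenly spread. They made up 0.547% of tested bins over all autosomes, between 0.464% on chromosome 12 and 0.907% on chromosome 19, with 0.641% on chromosome 9 the next highest. On chromosome 19, 2.11% of tested bins were active in liver, and on chromosome 11 2.15% were, but members were 43.1% of the active bins on chromosome 19 and 25.8% on chromosome 11. Of 23658 windows of 100 kb tested, 3651 held a member bin. Those with 10 or more member bins numbered 121 (0.511% of the windows tested) and held 16.1% of all members. The 3 fullest were chr15:3400001-3500000 with 28 member bins, which holds the widest region, chr10:87300001-87400000 with 26 and chr19:4500001-4600000 with 26. The first 2 held no liver H3K4me3 domain, and the window on chromosome 19 held 1 shared domain. Of the 6312 regions, 37.4% lay within 10 kb of another member region. The same was true of 35.1% of 3707 premarked regions, 22.6% of 1441 MEF-shared regions and 14.1% of 4666 liver H3K4me1-only regions. These sets hold fewer regions than the members do, and the part of set size in these shares was not tested.

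H3K4me3 domains, which mark active promoters, were more often liver-specific near the members than near premarked regions. Liver H3K4me3 domains were bins of 5 RPM or more, joined within 1 kb, and numbered 14495. A domain was liver-specific (2501 domains) where ES H3K4me3 was below 1.5 RPM in every bin, shared (10433) where it reached 5 RPM in a bin, and otherwise between (1561). The nearest domain was liver-specific for 2032 of 6312 member regions, 32.2% (interval 31.1 to 33.4%). The background was 17.8% of all tested bins and 18.3% of the tested bins unmarked in ES and MEF. It was 18.2% for premarked regions (interval 17.0 to 19.5%), 29.8% for MEF-shared regions (27.5 to 32.3%) and 23.3% for liver H3K4me1-only regions (22.1 to 24.5%). The intervals of members and MEF-shared regions overlapped. The choice used ES and liver H3K4me3 only in the bin and its neighbours, but it used other ES marks, and the part of these in the class of the nearest domain was not tested.

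The share was higher at short range. Among the 2144 member regions within 10 kb of a domain, 39.2% were nearest to a liver-specific one, against 40.1% of 397 MEF-shared regions (interval 35.3 to 44.9%), 18.8% of 1710 premarked regions and 16.6% of tested bins at that range. The members' interval there, 37.1 to 41.3%, lay within that of the MEF-shared regions. It was 30.1% from 10 to 50 kb, 29.1% from 50 to 100 kb and 23.3% beyond 100 kb. The median distance to a domain of any class was 20 kb for member regions, 12 kb for premarked regions, 24 kb for MEF-shared regions, 49 kb for liver H3K4me1-only regions and 108 kb for tested bins. Seen from the domains, 872 of 2501 liver-specific domains (34.9%) and 1752 of 10433 shared domains (16.8%) were nearest to a member region within 50 kb. Up to 7 member regions were nearest to a single liver-specific domain, and up to 9 to a shared one. Member regions nearest to a liver-specific domain had a median liver H3K27ac of 3.96 RPM, against 3.66 RPM for those nearest to a shared domain.

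**Figure D4:**
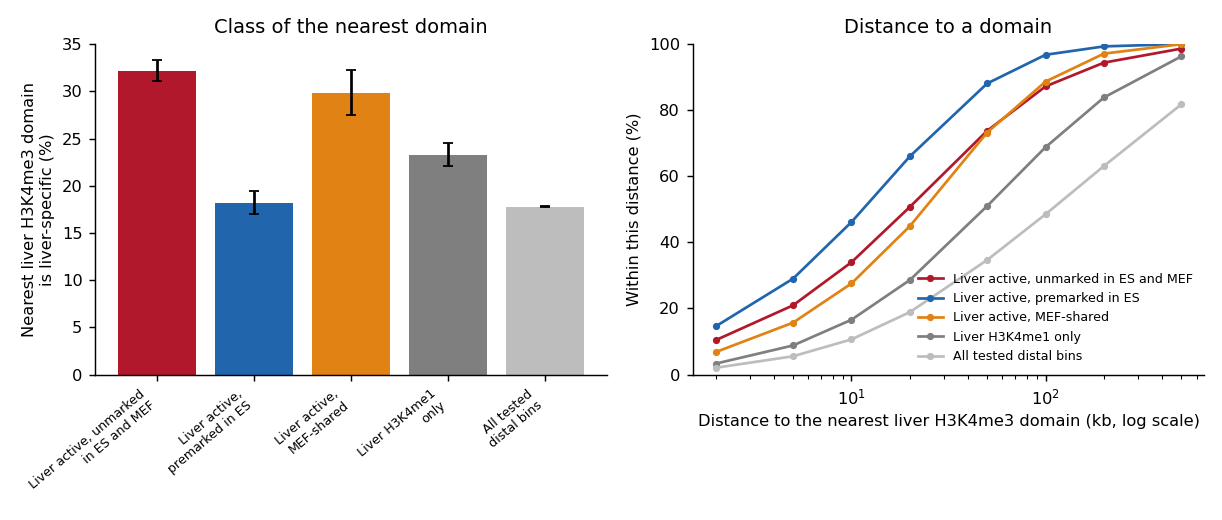
Left, percent of regions (bins, for all tested distal bins) whose nearest liver H3K4me3 domain was liver-specific, with 95% Wilson intervals of counting error; right, percent within a given distance (kb, log scale) of any liver H3K4me3 domain. Member regions (red) stand at 32.2% on the left, against 18.2% for premarked regions, and on the right lie farther from domains than premarked regions and nearer than liver H3K4me1-only regions.

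Unmarked bins were not always far from ES signal. Of the 6312 member regions, 1868 (29.6%) had a bin with mean ES H3K4me1 of 2 RPM or more within 5 kb, as did 20.8% of tested bins, 33.2% of MEF-shared regions and 20.9% of liver H3K4me1-only regions. The tested bins include bins that themselves reached 2 RPM of ES H3K4me1. Among those unmarked in ES and MEF the share was 10.997%. The median distance to a bin with ES H3K4me1 of 2 RPM or more was 14 kb for member regions. It was 12 kb for MEF-shared regions, 23 kb for liver H3K4me1-only regions, 48 kb for tested bins and 83 kb for those unmarked in ES and MEF.

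In neural progenitors, a second differentiated state that the choice did not use, members were acetylated about as often as all tested bins. That was more often than the tested bins unmarked in ES and MEF. NPC H3K27ac reached 2 RPM, which is 14 reads, at 92 of 9865 members, 0.933% (interval 0.761 to 1.14%). The background over all tested bins was 0.920%, so the members' share was near it, and it was 0.230% over the tested bins unmarked in ES and MEF. The share was 14.8% in premarked bins, 9.41% in MEF-shared bins and 0.905% in liver H3K4me1-only bins. Mean NPC H3K27ac was 0.240 RPM in members and 0.128 RPM in the unmarked bins, a ratio of 1.87. The same ratio was 1.21 for ES H3, 1.30 for MEF H3 and 1.54 for liver WCE. It was 1.94 and 1.88 in the 2 ES H3K27ac libraries, which the choice held low, and 1.95 for iPS H3K4me1. The NPC ratio was thus no higher than those of marks that were low in members. Unmarked bins also lay farther from liver H3K4me3 domains, at a median of 155 kb against 20 kb for member regions. No H3 or WCE library of NPCs was analysed here.

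The few members with NPC signal ran from 2.06 to 25.4 RPM, with 3 above 10 RPM. The highest was chr11:119338001-119339000, with 173 NPC H3K27ac reads (25.4 RPM) and 6 Rfx1 reads. Its liver H3K27ac was 11 reads (2.18 RPM), the least that the choice allowed, and it lay 1 kb from a liver H3K4me3 domain. Next came chr14:63100001-63102000 at 17.3 RPM in NPCs, with 4.55 RPM of H3K27ac and 8.68 RPM of H3K4me1 in liver, followed by chr1:39655001-39656000 at 9.69 RPM. The other 2 of the 5 highest, chr8:73146001-73147000 and chr8:96458001-96459000, had 7.34 and 6.61 RPM. Median liver H3K27ac was 3.96 RPM both in the 92 members and in the other members. Rfx1, a winged-helix factor of the regulatory factor X family, had 3 or more reads at 52 members (0.527%), against a background of 0.797% of all tested bins and 0.268% of those unmarked in ES and MEF, and at 4 of the 92 members with NPC H3K27ac. Its library had 694055 distinct reads, and most members had none.

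In iPS cells, which had been reprogrammed from fibroblasts, H3K4me1 of 2 RPM or more was rarer in members than in all tested bins. It was more common in members than in the tested bins unmarked in ES and MEF. The part of the limit on ES H3K4me1 in these shares was not tested. iPS H3K4me1 reached 2 RPM at 43 of 9865 members, 0.436% (interval 0.324 to 0.587%), where the background was 5.46% of all tested bins and 0.162% of those unmarked in ES and MEF. The share was 84.1% in premarked bins, 0.968% in MEF-shared bins and 0.374% in liver H3K4me1-only bins. No iPS read at all fell in 65.4% of members, 69.2% of tested bins and 80.5% of those unmarked in ES and MEF. With 2294246 distinct reads, 2 RPM was 5 reads, and the 43 members had 5 to 9. These 43 lay nearer to the ES limit, with a median ES H3K4me1 of 0.657 RPM, against 0.229 RPM in the other members. The region highest in iPS H3K4me1, chr12:88283001-88284000, had 8 iPS reads and 0.704, 0.958 and 0.645 RPM in the 3 ES H3K4me1 libraries. The next 4 had 6 or 7 iPS reads.

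**Figure D5:**
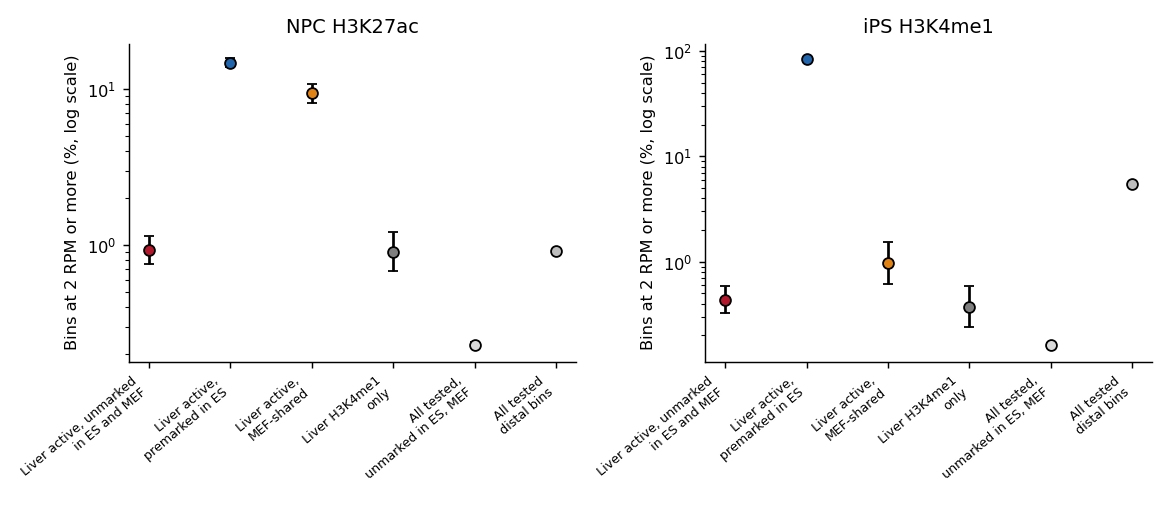
Percent of bins (vertical axes, log scale) at 2 RPM or more of NPC H3K27ac (left) and iPS H3K4me1 (right), libraries not used to choose the members; points are shares and bars 95% Wilson intervals of counting error. Members (red) lie at 0.933% and 0.436%, premarked bins at 14.8% and 84.1%.

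The acetyltransferase p300 was measured in ES cells only. Members averaged 0.446 and 0.458 RPM in the 2 p300 libraries and 0.565 RPM in ES WCE, which made p300 0.790 and 0.811 times WCE. The same ratios were 2.28 and 2.06 in premarked bins and 0.861 and 0.889 over all tested bins, and 0.627 and 0.705 over the tested bins unmarked in ES and MEF, so that members lay between those 2 backgrounds. The test chosen for this contrast, limma-trend over all 1812668 tested bins, called p300 higher than WCE at 0 of 9865 members at an adjusted p of 0.05, against a background of 0.0220% (399 bins), and at 12 premarked bins. At an unadjusted p under 0.05, 145 members were higher (1.47%, background 3.09%). It called p300 lower than WCE at 106 members (1.07%, background 6.58%), and 249 were lower at an unadjusted p under 0.05 (2.52%, background 7.69%). Of the 119315 tested bins called lower, 118016 were unmarked in ES and MEF. In 30.9% of those unmarked bins p300 library 1 had no read, against 10.3% of members. The part of low coverage in the lower calls was not tested, so they do not measure a loss of p300. The median log2 difference of p300 and WCE was -0.26 in members, 0.58 in premarked bins, -0.31 in all tested bins and -0.38 in the tested bins unmarked in ES and MEF. The test had 1 residual degree of freedom, and on simulated data it recovered none of the raised bins planted in it, so its count of 0 does not show that p300 was absent.

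Fits were therefore added after this was seen, and all of them are given. With at least 10 reads summed over the p300 and WCE libraries, limma-trend called 10 of 5566 members higher (0.180%, background 2.52%) and 862 of 5475 premarked bins, and limma-voom called 0 members (background 0.0323%; 3 members at an unadjusted p under 0.05). With at least 20 reads, limma-trend called 3 of 528 members (0.568%, background 14.2%) and limma-voom called 0 (background 1.23%; 0 members at an unadjusted p under 0.05). In the simulations the 2 limma-trend fits recovered part of the planted changes and the 2 limma-voom fits none. The read minimum keeps bins partly because p300 is high in them, so the shares among bins that passed do not describe all members. All 10 members called by limma-trend with at least 10 reads had 0 or 1 WCE reads. Each reached the minimum through its p300 reads, so these calls do not by themselves show p300 binding. Without that minimum limma-voom called 118 of 9865 members (1.20%), against a background of 1.37%. No planted change was tried on this fit. It called 24913 of 1812668 tested bins, where limma-voom with at least 10 reads called 228 of 705961. Its calls therefore hung on thinly covered bins set against a single WCE library, and they do not show p300 binding. Against the tested bins unmarked in ES and MEF the order differed between fits. Their share was 0.122% by limma-trend with at least 10 reads and 0.789% by limma-voom without the minimum, both below the members' share, and 1.06% by limma-trend with at least 20 reads, above it. The members' limma-trend intervals were 0.0976 to 0.330% with at least 10 reads and 0.193 to 1.66% with at least 20 reads. Both held the share of the unmarked bins, so the order within these 2 fits is not settled.

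The regions with the highest ratio of the lower p300 library to WCE, with 0.5 RPM added to both, were thinly covered. The highest, chr10:19762001-19763000, had 8 and 10 p300 reads and 1 WCE read. The next 3, chr7:3212001-3213000, chr10:76844001-76845000 and chr13:115204001-115205000, had 5 to 9 p300 reads in either library and 0 WCE reads. The last of the 5, chr13:94727001-94730000, had 19 and 26 p300 reads and 2 WCE reads over 3 kb. Its first bin, among the 10 called by limma-trend with at least 10 reads, had 6 and 12 p300 reads and 0 WCE reads, so it passed the minimum through p300 alone and was set against a count of 0 in a single library.

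Among members, bins with more liver H3K27ac also had more of the other liver signals. Members were split by liver H3K27ac into 5 groups. In the lowest (1359 bins, 2.18 to 2.38 RPM) and the highest (2022 bins, 7.13 to 40.6 RPM), mean liver H3K4me1 was 3.78 and 6.67 RPM and mean liver H3K4me3 0.295 and 0.622 RPM. Mean liver H3 was 0.435 and 0.565 RPM and mean liver WCE 0.623 and 0.720 RPM. NPC H3K27ac was 0.269 and 0.244 RPM, iPS H3K4me1 0.237 and 0.210 RPM, and the p300 libraries 0.423 and 0.480 RPM and 0.439 and 0.501 RPM. The choice required H3K27ac of at least 2 times the sum of liver H3 and 0.1 RPM, so bins low in H3K27ac could not be high in H3. It also set limits on liver H3K4me1 and H3K4me3, and the part of these limits in the differences was not tested. The values are descriptions over bins of single libraries, with no test.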

How the data were processed

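The deposited files are lists of signed read positions (the sign gives the strand) in 2 sections, and hold no counts, scores or peaks. Neither aligner nor build is named in the labels or files used here; per the labels, reads came from Solexa sequencing. The other values were computed here: reads of chromosomes 1 to 19 were counted once per position and strand, moved 100 bp to the fragment centre and binned at 1 kb, as reads per 1000000 distinct autosomal reads (RPM). Members, comparison sets and lists were chosen with earlier results of these data known. Named regions are the 5 highest or widest by each of 5 measures, and the 3 fullest windows. The background set unmarked in ES and MEF, the acetylated blocks, the 5 groups by H3K27ac, the class by distance, the ratio of the 2 liver marks, the Rfx1 read minimum and the members with NPC or iPS signal were described after values had been seen. Profiles at finer steps were also looked at and not used.

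For p300, limma 3.58.1 was run in R 4.3.3 on log2 RPM with a prior count of 2 and Benjamini-Hochberg adjustment over all tested bins. Because this fit recovered no planted change on simulated data, 4 fits with a read minimum (10 or 20 reads, limma-trend or limma-voom) were added. Libraries of the ES groups differed beyond sampling noise (chi-square per degree of freedom 1.19 to 1.87), so none was a repeat deposit. The second p300 library is named p301 in 1 label field and p300 in its title.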

Additional observations from a re-analysis of the deposited data

How the results depend on the processing

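Requiring 4 RPM of both liver marks left 3492 bins in 2544 regions, with 35.0% nearest to a liver-specific domain and 26.9% within 10 kb of another region. Keeping repeated reads gave 29.0% nearest to a liver-specific domain (background 16.2%). Thinning every library to 2000000 distinct reads gave 7763 members, of which 4903 were shared with the 9908 (49.5% of these), 33.4% within 10 kb, NPC H3K27ac at 1.91% (background 2.04%) and iPS H3K4me1 at 0.999% (background 9.10%); at that depth 2 RPM is a few reads, and membership itself is depth limited. Bins starting 500 bp later gave iPS H3K4me1 at 0.297%.

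The share of members called higher for p300 than for WCE was 0% as chosen (background 0.0220%) and 1.2% with limma-voom (background 1.37%). With TMM scaling it was 0.162% (background 0.552%). With the limma-trend fits added after seeing the data it was 0.18% (10 reads, background 2.52%) and 0.568% (20 reads, background 14.2%). With the added limma-voom fits it was 0% at either minimum (backgrounds 0.0323% and 1.23%). It was 0% with a prior count of 0.5 (background 0.0231%) and with ES H3 added to WCE (background 0.479%). It was also 0% without the filter on low bins (background 0.0187%) and with repeated reads kept (background 0.0138%). The fits were added because the first recovered none of the changes planted in simulated data, and none replaces it. With 1 p300 library left out there is no test: members past 2-fold were 5.61% without replicate 1 (6.29% of all tested bins, 3.98% of those unmarked in ES and MEF), 6.80% without replicate 2 (7.64% and 4.67%) and 3.82% with both (4.86% and 2.44%).

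Leaving out each ES H3K4me1 or H3K27ac library in turn gave 9722 to 9927 bins and 6207 to 6315 regions. NPC H3K27ac was then 0.916 to 0.973%, iPS H3K4me1 0.424 to 0.526%, the nearest domain liver-specific for 31.8 to 32.4% and another region within 10 kb for 37.2 to 37.6%. All other alternatives run (reads not moved, liver WCE in place of H3, no minimum of background reads, and the remaining results under the alternatives above) kept their values within the main interval or within 1.5 times the main count.

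No paired analysis was possible because ES WCE is 1 library with no replicate number, and the other comparisons come from no test. Liver, NPC, iPS and MEF values have no replicate.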
